A study of Mus musculus with 8 samples.

Results

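The genotype difference in the response of peritoneal macrophages to lipopolysaccharide (LPS) was measured as an interaction, that is, the LPS response of MED1 knockout macrophages minus the LPS response of control macrophages. It was computed on log2(RPKM + 1), where RPKM is the reads of a transcript scaled to its length and to the mapped reads of the library, for each locus that reached 1 RPKM in 2 or more libraries, which were 11272 of the 23735 loci in the table. A positive value means that the response in the knockout lay above that in the control, and a value of 1 means a 2-fold difference between the responses. No measured difference was used to choose these loci.

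The macrophages came from 8-week-old C57BL/6J mice. The control group carried floxed MED1 alleles (MED1fl/fl, called WT in the labels and here), and the knockout group is labelled MED1-/- or MED1ΔMac (called KO here). Each genotype was left untreated or given LPS at 50 ng/mL for 6 h, which made 4 groups of 2 libraries, marked A and B. The sources used here give neither the Cre driver, nor the deleted exons, nor whether A and B came from separate animals, so p-values measure only the spread between these libraries, which may be technical.

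Mediator is a large complex that passes signals from DNA-bound transcription factors to RNA polymerase II, and MED1 is the subunit through which many nuclear receptors contact it. LPS, a component of the outer membrane of Gram-negative bacteria, is sensed by TLR4, which drives NF-kB, AP-1 and interferon regulatory factors and a broad change in macrophage transcripts. Peritoneal macrophages answer LPS with cytokines, chemokines and antimicrobial enzymes.

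The interaction test called 4 loci, 3 microRNA loci and Arg1, the arginase gene. The mature microRNAs are shown to identify these loci, each of which rested on what is taken as 1 read in each of 2 libraries. The read estimates below use the hairpin lengths of 77 (Mir5133), 110 (Mir3473e) and 81 bases (Mir1894), and not the mature lengths. The mature sequences are printed 5′ to 3′ as in RefSeq on GRCm38.p6, with the seed (bases 2 to 8) in capitals, and no seed was shared between them. The arms of miR-1894 lie on chromosome 17 (plus strand, chr17:35917899-35917920 and chr17:35917938-35917959), miR-3473e on chromosome 5 (minus strand, chr5:31667296-31667316) and miR-5133 on chromosome 9 (minus strand, chr9:62122565-62122585).
mmu-miR-1894-5p: cUCUCCCCuaccaccugccucu
mmu-miR-1894-3p: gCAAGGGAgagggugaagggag
mmu-miR-3473e: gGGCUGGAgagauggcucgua
mmu-miR-5133: gCUGGAGCugcggcagcgcag

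Estimated depth was 6.99 to 14.4 M mapped reads per library, which makes 1 read worth 0.0695 to 0.143 RPKM for a 1 kb transcript. Med1 (mm9 chromosome 11, minus strand) had 21.7 and 24.8 RPKM in untreated WT (libraries A and B, here and below), 24.7 and 21.6 in LPS-treated WT, 17.6 and 23.4 in untreated KO and 24.4 and 20.3 in LPS-treated KO. These ranges overlapped, and the Med1 interaction was 0.13 (SE 0.30). The value covers the whole locus and does not measure the loss of a working transcript. The 8 macrophage markers were above 0 in every library, with Fcgr1 as low as 0.455 RPKM in LPS-treated KO B. Most of their sum came from Lyz2, and their presence does not measure purity. The sum was lower in KO than in WT without overlap in either treatment, at 11651 and 18150 RPKM against 32016 and 35665 untreated, and 8352 and 8319 against 21243 and 18633 with LPS. Most of this difference was in Lyz2, at 8503 and 15001 RPKM in untreated KO against 28588 and 32317 in untreated WT. Untreated, Cd14 was also lower in KO, and Cd68, Emr1, Fcgr1 and Mertk each had a KO library above both WT libraries. With LPS, Csf1r, Itgam, Fcgr1 and Mertk were also lower in KO without overlap. Emr1 was nearly equal, at 454 and 454 RPKM in KO against 450 and 424 in WT. None of the 8 markers was called between genotypes in either treatment. Groups of 2 libraries can fail to overlap without a true difference. Markers of other peritoneal cells were also present, and KO untreated B stood apart in them. The B cell marker sum was 2112 RPKM there against 569 to 1671 in the other 7 libraries. The T and NK cell sum was 102 against 20.2 to 60.8, and the large peritoneal macrophage sum was 1219 against 211 to 600. With LPS, the B cell sum was also higher in KO, at 1671 and 1223 RPKM against 810 and 569 in WT. The T and NK cell sums with LPS were 45.5 and 60.8 in KO against 21.0 and 28.4 in WT. KO untreated A had a B cell sum of 789, between the untreated WT values of 881 and 784. Mast cell markers summed to 69.5 to 167 RPKM in the B libraries and 0.304 to 24.5 in the A libraries. Neutrophil markers summed to 40.1 to 122 RPKM, most of it from S100a8, and eosinophil markers to 0.216 to 3.42. Within these lists, Ngp of neutrophils and the eosinophil locus Ear6/Ear7 were listed at 0 in all libraries. In such bulk samples, fewer cells of a type and less RNA per cell cannot be told apart. KO below means the libraries labelled as knockout.

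Few genotype differences in the LPS response stood out from the spread between libraries. Of the 11272 loci tested, 4 (0.0355%) passed at an adjusted p under 0.05 (limma, Benjamini-Hochberg), 2 with a higher response in KO (0.0177%) and 2 with a lower one (0.0177%). For all other loci the adjusted p rounded to 0.9999 or more. At an unadjusted p under 0.05 (limma) there were 184 loci (1.63%), fewer than the 564 that would fall there if no locus differed. The interaction had a median of -0.03 on the log2 scale, with quartiles of -0.22 and 0.17, with 46.4% of loci above 0, and it lay past 1 in either direction at 413 loci (3.66%). In the same fit, the LPS response averaged over both genotypes was called at 954 loci upward (8.46%) and 2456 downward (21.8%), a balance that median-ratio scaling moved to 1551 and 1488. The average response and the interaction are estimated independently in this balanced design, and the plot of interaction against average response shows how narrowly most loci lie around 0.

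**Figure D1:**
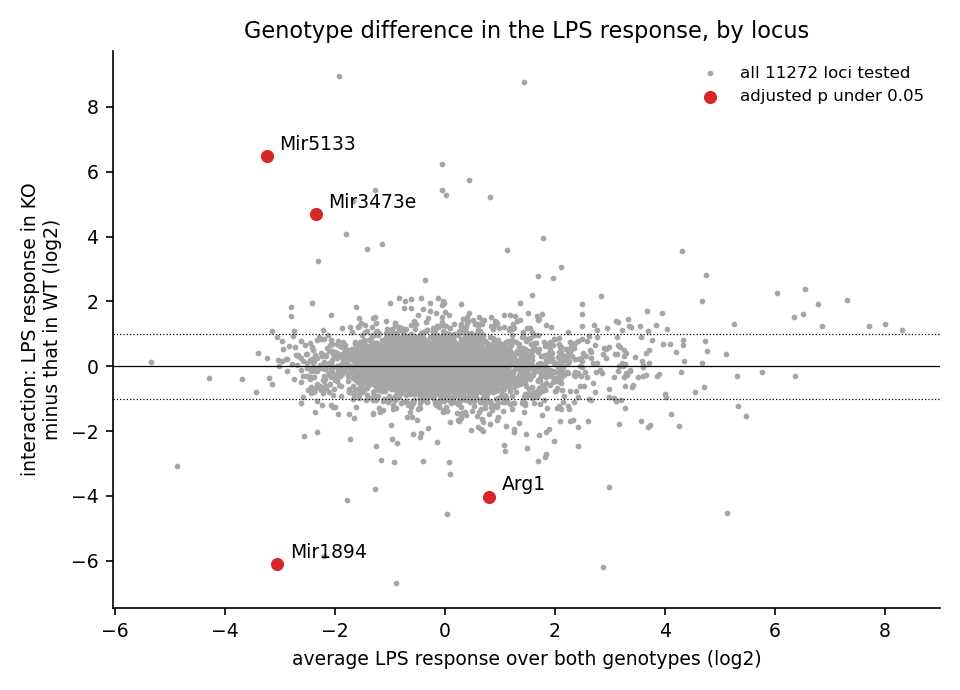
Each point is 1 of 11272 loci, with the LPS response averaged over both genotypes on the x axis and the interaction on the y axis (both log2). The 4 loci with an adjusted p under 0.05 are red, dotted lines mark an interaction of 1 and -1, and Arg1 is the only one of the 4 with an average response above 0.

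Precision limited what could be seen. The 95% interval of the interaction reached 0.89 to either side of the estimate at the median locus. It lay wholly inside -1 to 1 at 4134 loci (36.7%), where a genotype difference past 1 lies outside the interval. Among the 954 loci that rose with LPS the interval lay inside these bounds at 212, and among the 2456 that fell it did so at 738. Of the 199 loci whose average rise was past 2, only 3 had such an interval, because the median half-width there was 1.75.

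Arg1 encodes arginase 1, which splits arginine into ornithine and urea and is a hallmark of alternatively activated macrophages. Its level was 56.1 and 48.2 RPKM in untreated WT and 325 and 425 in LPS-treated WT. Untreated KO had 22.8 and 36.9 RPKM, and LPS-treated KO 11.5 and 12.4. The 4 groups did not overlap: LPS-treated WT libraries were the highest, LPS-treated KO libraries the lowest, and both untreated KO libraries lay below both untreated WT libraries. With LPS, Arg1 rose in WT by 2.82 (SE 0.27, limma adjusted p = 0.00683) and fell in KO by 1.21 (SE 0.27, adjusted p = 0.0433) on the log2 scale, where LPS calls were made at 6.31% of loci in WT and 6.62% in KO. The interaction was -4.03 (SE 0.38, 95% interval -4.92 to -3.14, limma adjusted p = 0.0284), with -3.44 from the A libraries and -4.61 from the B libraries. With LPS, KO lay below WT by -4.85 (adjusted p = 0.00261), the only locus called between genotypes in treated cells (0.00887%), and without LPS by -0.82 (adjusted p = 1). Arg1 has 1 annotated transcript of 1476 bases in GENCODE vM1 (mm9 chromosome 10, 24635014 to 24647276, minus strand), on which these values stand for an estimated 155 to 5388 reads per library.

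The size of the Arg1 interaction held in every setting, but its call did not. It ranged from -4.37 to -3.69 when 1 library was left out, and from -4.11 to -3.73 under other scalings, pseudocounts and filters. The call was made in 6 of the 19 settings run, the one reported included. It was lost when the 83 small RNA loci were left out of the table (adjusted p = 0.0801), because the adjustment ranks Arg1 behind 3 microRNA loci, and no locus passed then (179 at an unadjusted p under 0.05, limma). Without KO untreated B, the library that stood apart in cell markers, the Arg1 interaction was -3.69 (adjusted p = 0.0599).

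The other genes of arginine use did not share this pattern. Of 13 tested, 8 had a higher response in KO and 5 a lower one, with a median of 0.25 against -0.03 over all loci, and Arg1 was the one called. Without KO untreated B the median was -0.05. Nos2, the inducible nitric oxide synthase that competes with arginase for arginine, had 0.411 and 0.757 RPKM in untreated WT, 18.4 and 135 in LPS-treated WT, 0.135 and 1.09 in untreated KO and 27.3 and 36.3 in LPS-treated KO. LPS-treated Nos2 values were far above untreated ones in both genotypes, the KO values lay between the 2 WT values, and the interaction was -0.63 (SE 1.13), positive in the A libraries (0.86) and negative in the B libraries (-2.12). Ass1, which makes the arginine precursor from citrulline, had an interaction of 0.73 (SE 0.54). Gch1, which starts the synthesis of the nitric oxide synthase cofactor tetrahydrobiopterin, had 0.77 (SE 0.43). Slc7a1, a transporter of arginine, had 0.15 (SE 0.26) after a rise of 1.90 averaged over both genotypes. The plot of arginine genes by library shows Arg1 as the only one of its 4 genes whose lines run in opposite directions in WT and KO.

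**Figure D2:**
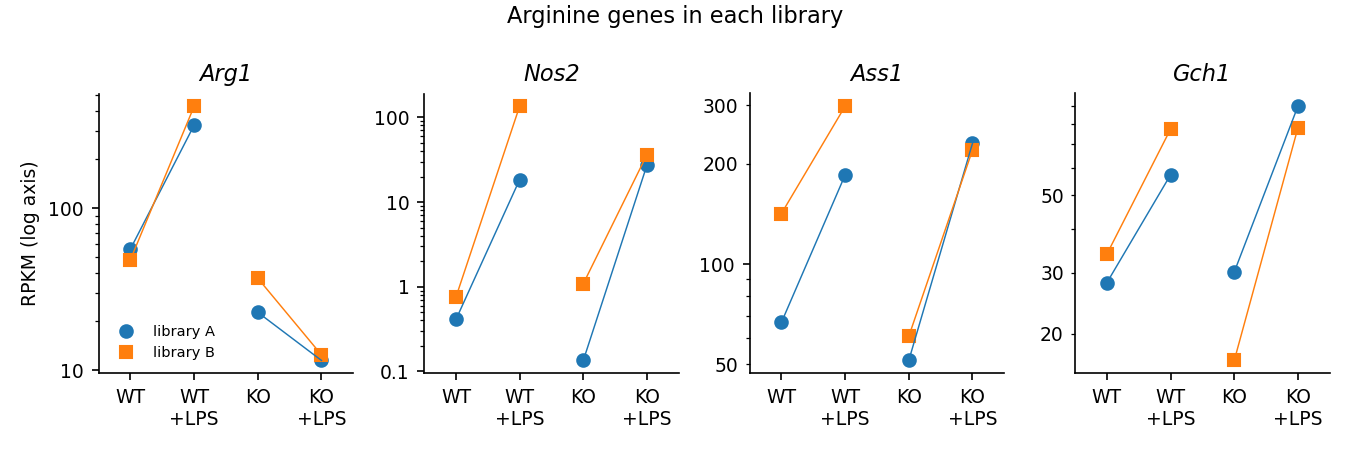
RPKM (log axis) of Arg1, Nos2, Ass1 and Gch1 in each of the 8 libraries, with circles for library A and squares for library B and a line from the untreated to the LPS-treated library of the same letter. Arg1 goes from 56.1 and 48.2 to 325 and 425 RPKM in WT and from 22.8 and 36.9 to 11.5 and 12.4 in KO, while the lines of the other 3 genes go up in both genotypes.

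The 3 called microRNA loci had values above 0 in 2 of the 8 libraries each. Those 2 libraries formed 1 group, and only through it did each locus meet the filter of 1 RPKM in 2 libraries. All other groups were at 0 without spread, so the p-values below do not measure support for a genotype difference. Mir5133 had 96.5 and 80.7 RPKM in untreated WT and was listed at 0 in the other 6 libraries, with an interaction of 6.48 (limma adjusted p = 0.000691). Mir3473e had 27.4 and 22.9 RPKM in the same 2 libraries, with an interaction of 4.70 (adjusted p = 0.00467). Mir1894 had 48.6 and 93.8 RPKM in untreated KO and an interaction of -6.10 (adjusted p = 0.00666). All 3 were also the only loci called between genotypes in untreated cells (0.0266%), and each is listed at 0 in all LPS-treated libraries.

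These levels lay on a step shared by many microRNA hairpins of like length, which is taken here as 1 read. The RPKM of 1 read depends on hairpin length and library depth. Of 101 microRNA hairpins with a value, 60 entered a curve of lowest value against length. These were not called, had 75 to 140 bases and had values in whole multiples of their lowest. Loci far off the curve were then dropped. The 55 kept lay at a median distance of 0.697% and at most 2.55%, a closeness that partly follows from this choice. On that curve the 2 values of Mir5133 (hairpin of 77 bases) stood for 1.01 and 1.01 reads, those of Mir3473e (110 bases) for 1.003 and 1.003, and those of Mir1894 (81 bases) for 0.989 and 1.01. The curve set 1 read at 58.8 RPKM for Mir5133, 16.8 for Mir3473e and 49.1 for Mir1894, at the depth of KO untreated A. These values are far above what scaling by hairpin length alone would give, and the reason was not tested. The WT A to WT B ratio of Mir5133 and of Mir3473e was 1.20, which is the ratio of the value of 1 read in these libraries (1.20). Each hairpin overlaps a longer gene in RefSeq: Mir5133 overlaps Glce, Mir3473e Rbks and Mir1894 Ppp1r10. The sources used here do not give the strand of counting, so a read of the hairpin and a read of the longer gene cannot be told apart. The longer genes had interactions of -0.07 (Glce), -0.21 (Rbks) and 0.11 (Ppp1r10). A count of 1 carries a counting error that the spread between the 2 values does not include.

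**Figure D3:**
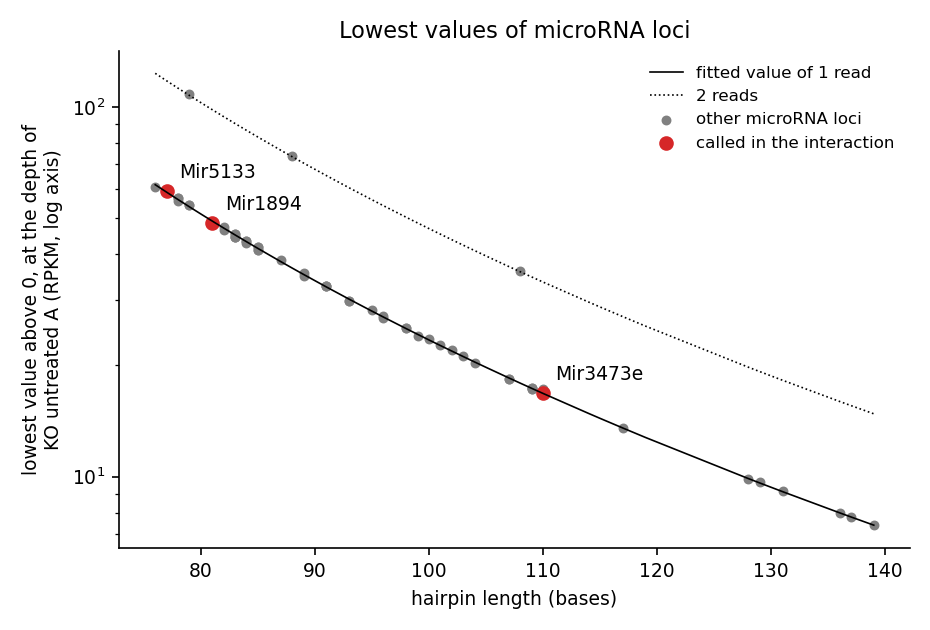
Lowest value above 0 of microRNA loci with hairpins of 75 to 140 bases, scaled to the depth of the library KO untreated A (RPKM, log axis), against hairpin length in bases. Loci whose values were not whole multiples of their lowest, or lay far below the line of 1 read, are not shown. The lines are the fitted values of 1 read and of 2 reads, and the 3 called loci (red) lie on the line of 1 read.

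Further genes had a lower response in KO in both letters without passing the test. The genes below have the smallest unadjusted p among named genes with a group mean of at least 5 RPKM, and the adjusted p was 0.9999 for each. P2ry6, the receptor for UDP, had 17.5 and 8.15 RPKM in untreated WT, 22.9 and 14.4 in LPS-treated WT, 11.5 and 16.5 in untreated KO and 1.66 and 1.96 in LPS-treated KO. Only the LPS-treated KO libraries stood apart from the other 6, and the interaction was -2.96 (SE 0.54). Ccl6, a CC chemokine of rodents, had 56.7 and 67.1 RPKM in untreated WT, 85.4 and 85.6 in LPS-treated WT, 56.9 and 90.7 in untreated KO and 26.3 and 19.8 in LPS-treated KO, an interaction of -2.08 (SE 0.38). The orphan receptor Gpr141 had 2.42 and 2.76 RPKM in LPS-treated KO against 5.92 to 13.5 in the other 6 libraries, an interaction of -1.92 (SE 0.34). With LPS, P2ry6 (-2.40, adjusted p = 0.02), Ccl6 (-1.61, adjusted p = 0.0216) and Gpr141 (-1.27, adjusted p = 0.0294) fell in KO, and their changes in WT did not pass (0.56, 0.46 and 0.65). A call in 1 genotype and not in the other is no test of the difference, which is the interaction itself.

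Uck2, Elk3 and Rap1gap2 rose in WT (adjusted p = 0.0151, 0.0164 and 0.0205, limma), and their changes in KO did not pass. Uck2, a uridine-cytidine kinase, had 3.12 and 1.53 RPKM in untreated WT, 14.4 and 13.8 in LPS-treated WT, 4.34 and 4.38 in untreated KO and 4.39 and 7.09 in LPS-treated KO. Both LPS-treated WT libraries lay above all others, and the interaction was -1.93 (SE 0.42). Elk3, an ETS transcription factor, had 35.5 and 28.8 RPKM in LPS-treated WT against 9.49 to 13.8 in the other 6 libraries, an interaction of -1.33 (SE 0.31). Rap1gap2, a GTPase-activating protein for Rap1, had an interaction of -1.25 (SE 0.33). Whsc1, a histone H3 lysine methyltransferase, had -1.06 (SE 0.28), and the locus Mir8104/Ppm1h, which holds a phosphatase gene, had -2.18 (SE 0.56), and the LPS change of these 2 loci passed in neither genotype. Fcgr4, an Fc receptor for IgG, fell in KO (-2.86, adjusted p = 0.0155) and not detectably in WT (-0.61, adjusted p = 0.344). Its interaction was -2.24 (SE 0.57), and its highest value by far, 79.9 RPKM, came from KO untreated B against 35.7 in KO untreated A.

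In the other direction, several genes had a higher response in KO, and none passed the test. Rasgef1b, a Ras guanine nucleotide exchange factor, had 13.3 and 17.8 RPKM in untreated WT, 29.3 and 20.7 in LPS-treated WT, 17.5 and 15.5 in untreated KO and 78.0 and 66.9 in LPS-treated KO. Its LPS-treated KO libraries lay above all others, and the interaction was 1.43 (SE 0.34). Tnfsf4, the OX40 ligand that co-stimulates T cells, had 25.4 and 9.26 RPKM in LPS-treated KO against 1.29 to 4.65 in the other 6 libraries, an interaction of 2.2 (SE 0.59). The light-sensitive receptor family member Opn3 had 10.2 and 15.5 RPKM there against 2.19 to 5.21 in the others, an interaction of 1.57 (SE 0.45). H2-M2, a nonclassical MHC class I gene, had an interaction of 2.16 (SE 0.60), and Mef2b, a MADS-box transcription factor, 1.53 (SE 0.44).

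Colec12, Glipr1 and Fabp4 fell with LPS in WT, and their changes in KO were smaller and did not pass. Colec12, a scavenger receptor with a C-type lectin domain, had 253 and 226 RPKM in untreated WT, 54.3 and 48.6 in LPS-treated WT, 200 and 145 in untreated KO and 106 and 83.7 in LPS-treated KO. The untreated libraries were above the treated ones in both genotypes, and the change was -2.19 in WT (limma adjusted p = 0.00990) and -0.85 in KO (adjusted p = 0.0709), an interaction of 1.34 (SE 0.33). Fabp4, a carrier of fatty acids in macrophages and fat cells, had 817 and 642 RPKM in untreated WT, 113 and 189 in LPS-treated WT, 634 and 435 in untreated KO and 280 and 318 in LPS-treated KO. Its groups did not overlap within treatments, and the interaction was 1.48 (SE 0.45). Glipr1 had an interaction of 1.52 (SE 0.37), the lysozyme-like Lyzl4 1.23 (SE 0.34), and Rps15a-ps4, a ribosomal protein pseudogene that may share reads with its parent gene, 1.49 (SE 0.43).

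Inflammatory mediators were compared next, as members of lists. No cytokine passed, and 18 of 22 had a higher response in KO, with a median of 0.93 against -0.03 over all loci. The medians from the A and B libraries were 0.998 and 0.47. Tnf, the cytokine named for tumour necrosis, had 16.0 and 27.8 RPKM in untreated WT, 115 and 436 in LPS-treated WT, 18.1 and 12.3 in untreated KO and 680 and 1881 in LPS-treated KO. The LPS-treated KO libraries were above the LPS-treated WT libraries, and the interaction was 2.80 (SE 0.98, unadjusted p = 0.0234, adjusted p = 0.9999). Il6 had 106 and 2144 RPKM in LPS-treated WT and 484 and 2423 in LPS-treated KO, so the spread between letters exceeded that between genotypes, and the interaction was 1.31 (SE 1.94). Il1b had 2693 and 11511 RPKM in LPS-treated WT and 4257 and 9859 in LPS-treated KO, an interaction of 1.12 (SE 1.15). Lif (1.65), Csf2 (1.51), Il27 (1.46), the anti-inflammatory Il10 (0.83) and the shared subunit of interleukins 12 and 23, Il12b (0.46), had SEs from 0.69 to 1.62. In all LPS groups, the B library had the higher Tnf, Il6, Il1b, Lif, Csf2, Il27, Il12b and Il10 value. Without the library LPS-treated WT A the cytokine median was -0.20, although the B libraries alone, which do not include it, gave 0.47. Without LPS-treated KO B the median was 0.27.

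Chemokines split, with 10 of 19 higher in KO and a median of 0.24, which was 1.13 in the A libraries and -0.47 in the B libraries. The neutrophil attractants Cxcl1 and Cxcl2 had interactions of 2.37 (SE 1.40) and 2.27 (SE 1.25). Cxcl2 had 780 and 4862 RPKM in LPS-treated WT and 2970 and 10898 in LPS-treated KO, and these ranges overlapped. Cxcl13, which attracts B cells, had -2.79 (SE 1.90), with -0.18 from the A libraries and -5.41 from the B libraries. Its KO untreated B value was 57.1 RPKM against 1.13 in KO untreated A, and without KO untreated B the interaction was -0.41. The interferon-induced Cxcl9 had -2.71 (SE 1.68). Cxcl10, also induced by interferon, had -1.22 (SE 2.21) and Ccl5 -0.31 (SE 1.64). None of the 19 was called, and the median was -0.29 without KO untreated A and -0.09 without LPS-treated WT A.

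Interferon-response genes gave opposite answers in the A and B libraries. Of 37 tested, 20 were higher and 17 lower, 8 had the same sign in both letters, and the median was 0.07, with 0.90 from the A libraries and -0.92 from the B libraries. Iigp1, a GTPase of cell-autonomous immunity, had 0.320 and 1.38 RPKM in untreated WT, 8.76 and 265 in LPS-treated WT, 0.327 and 55.2 in untreated KO and 8.42 and 37.0 in LPS-treated KO. In Iigp1 the LPS-treated WT B library and KO untreated B were far above the A library of their group, and the interaction of -3.71 had an SE of 2.79. Without KO untreated B the median of the list was 0.45, and without LPS-treated WT A it was -0.34. The antiviral enzyme Rsad2 had an interaction of 1.13 (SE 0.63). The part that the cells marked out in KO untreated B had in these values was not tested.

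**Figure D4:**
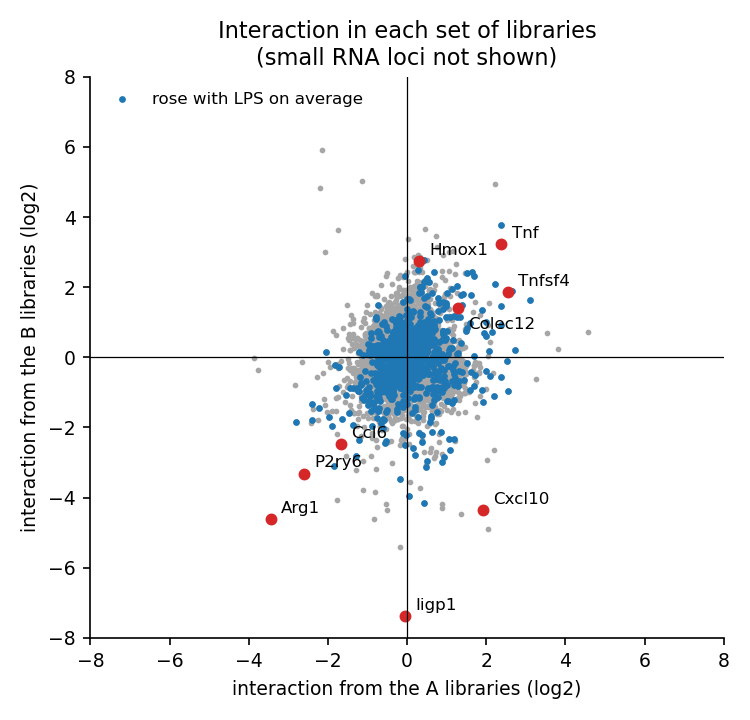
Interaction computed from the A libraries (x axis) and from the B libraries (y axis), both log2, for 11189 loci, with the loci that rose with LPS on average in blue and 9 named genes in red. Arg1 (-3.44 and -4.61) and P2ry6 (-2.61 and -3.32) lie far from 0 in both, while Cxcl10 (1.92 and -4.36) lies on opposite sides.

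The same comparison can be made for all loci, since the A and B libraries give 2 interactions with no library in common. Over 11272 loci the correlation between them was 0.04 (Pearson) and -0.01 (Spearman), and 5507 loci (48.9%) had the same sign in both. Over the 954 loci that rose with LPS it was 0.30 and 0.25, and 564 (59.1%) had the same sign. Over the 2456 that fell it was 0.23 and 0.06, and 47.4% had the same sign. That set holds the 3 called microRNA loci, each far from 0 with the same sign in both letters, to which the Pearson value is sensitive. The loci of a library share its depth and cell makeup, so these correlations are descriptions. An interaction past 1 in both letters was seen with the same sign at 119 loci (1.06%) and with opposite signs at 66 (0.586%). Arg1, P2ry6, Ccl6, Gpr141 and Tnf were among the former.

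Antioxidant and lysosomal genes had the highest list medians beside the cytokines. All 13 genes of the NRF2 antioxidant response had a higher response in KO, with a median of 1.22, and 0 were called (2 at an unadjusted p under 0.05, limma, against 1.63% of all loci). The medians were 0.39 in the A libraries and 2.18 in the B libraries. Hmox1, which degrades heme, had 904 and 1554 RPKM in untreated WT, 1061 and 1089 in LPS-treated WT, 1258 and 368 in untreated KO and 1822 and 1734 in LPS-treated KO. KO untreated B was the lowest of the 8 Hmox1 values, and the interaction was 1.52 (SE 0.78). Nqo1, a quinone reductase, had an interaction of 1.67 (SE 0.77), the sulfiredoxin Srxn1 1.55 (SE 0.65) and the cystine transporter Slc7a11 1.39 (SE 0.97). Without KO untreated B the median of the list was 0.68, and without WT untreated B 0.53.

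Lysosomal genes had a higher response in KO at 21 of 23 members, with a median of 0.49, and 0 were called (0 at an unadjusted p under 0.05, limma). The median LPS change of the list was -1.36 in WT and -0.87 in KO. The proton pump subunits Atp6v0d2 (1.95, SE 0.96) and Atp6v1h (1.11, SE 0.56), the transmembrane glycoprotein Gpnmb (1.54, SE 1.01) and the acid lipase Lipa (1.23, SE 0.53) had the largest values. The median was 0.01 from the A libraries and 0.89 from the B libraries, and it was 0.08 without KO untreated B and 0.03 without LPS-treated WT B. Of 88 genes of oxidative phosphorylation 70 were higher, at a median of 0.15. That median was -0.09 in the A libraries and 0.31 in the B libraries, 34 of the 88 had the same sign in both, and it was -0.01 without KO untreated B, -0.10 without LPS-treated WT B and -0.05 without LPS-treated KO A. Of 79 cytosolic ribosomal protein genes 70 were higher, at a median of 0.13, which was -0.05 without KO untreated A. Sterol synthesis genes were higher at 14 of 16, with a median of 0.26, which was 0.89 in the A libraries, -0.20 in the B libraries and -0.13 without LPS-treated WT A.

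Nuclear receptor programmes, in which MED1 is a known coactivator, showed no common direction. PPAR targets and genes of fatty acid oxidation were higher at 8 of 21 (median -0.04), and genes of cholesterol efflux and LXR at 10 of 16 (median 0.11, and -0.19 without KO untreated B). Abca1, which exports cholesterol and is an LXR target, had 63.4 and 36.1 RPKM in untreated WT, 151 and 137 in LPS-treated WT, 47.6 and 35.6 in untreated KO and 78.6 and 67.0 in LPS-treated KO. The LPS-treated KO libraries lay below the LPS-treated WT libraries and above their own controls, and the interaction of Abca1 was -0.76 (SE 0.42). Apoe had -1.09 (SE 0.64), Lpl 1.10 (SE 1.02), Angptl4 -1.08 (SE 0.52), Fabp5 0.79 (SE 0.61), the scavenger receptor Cd36 0.67 (SE 0.70) and the receptor gene Pparg itself -0.40 (SE 0.84). The 32 Mediator subunits tested had a median of -0.06 and ranged from -0.46 to 0.26.

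Of 18 genes of alternative activation, Arg1 counted, 13 were lower in KO, and the median was -0.17. It was 0.02 without KO untreated B and -0.52 without KO untreated A, and 9 of the 18 had the same sign in both letters. The lectins Clec10a (-1.47, SE 0.87) and Mrc1 (-1.21, SE 0.73) and the chitinase-like Chil3 (-0.69, SE 0.87) lay below 0, and Retnla (1.15, SE 0.95) above. Scavenger and efferocytosis receptors had a median of -0.29, with 12 of 19 lower and 4 of these at an unadjusted p under 0.05 (limma, against 1.63% of all loci). Fcgr1, the high-affinity Fc receptor for IgG, had -2.45 (SE 0.71), the integrin Itgb5 -1.47 (SE 0.43) and Stab1 -1.05 (SE 0.60). Itgb5 had 1.76 and 2.12 RPKM in LPS-treated KO against 6.15 to 19.5 in the other 6 libraries, whereas Fcgr1 was also highest in KO untreated B, at 17.3 RPKM. Macrophage markers were lower at 7 of 8 (median -0.30), including Mertk (-0.92, SE 0.39), Itgam (-0.55, SE 0.33) and Lyz2 (-0.22, SE 0.60), while Cd68 had 0.96 (SE 0.66). Of the large peritoneal macrophage markers, Selp had -2.92 (SE 0.87) and Gata6 -0.17 (SE 0.34), and the 10 had a median of -0.28, with 0.28 from the A libraries and -0.94 from the B libraries. That median was 0.44 without KO untreated B and -1.21 without KO untreated A, and 3 of the 10 had the same sign in both letters. Markers of other cells had medians of 0.46 (B cell, 8 tested), 0.13 (T and NK cell, 7), -1.19 (mast cell, 6), -0.63 (neutrophil, 3), -0.33 (eosinophil, 1), -0.16 (dendritic cell, 3) and -1.19 (mesothelial and fibroblast, 4), and none was called. Without KO untreated B the medians were 1.24 for B cell, 1.25 for T and NK cell and 0.69 for mast cell markers. The part that these cells had in the values above was not tested.

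**Figure D5:**
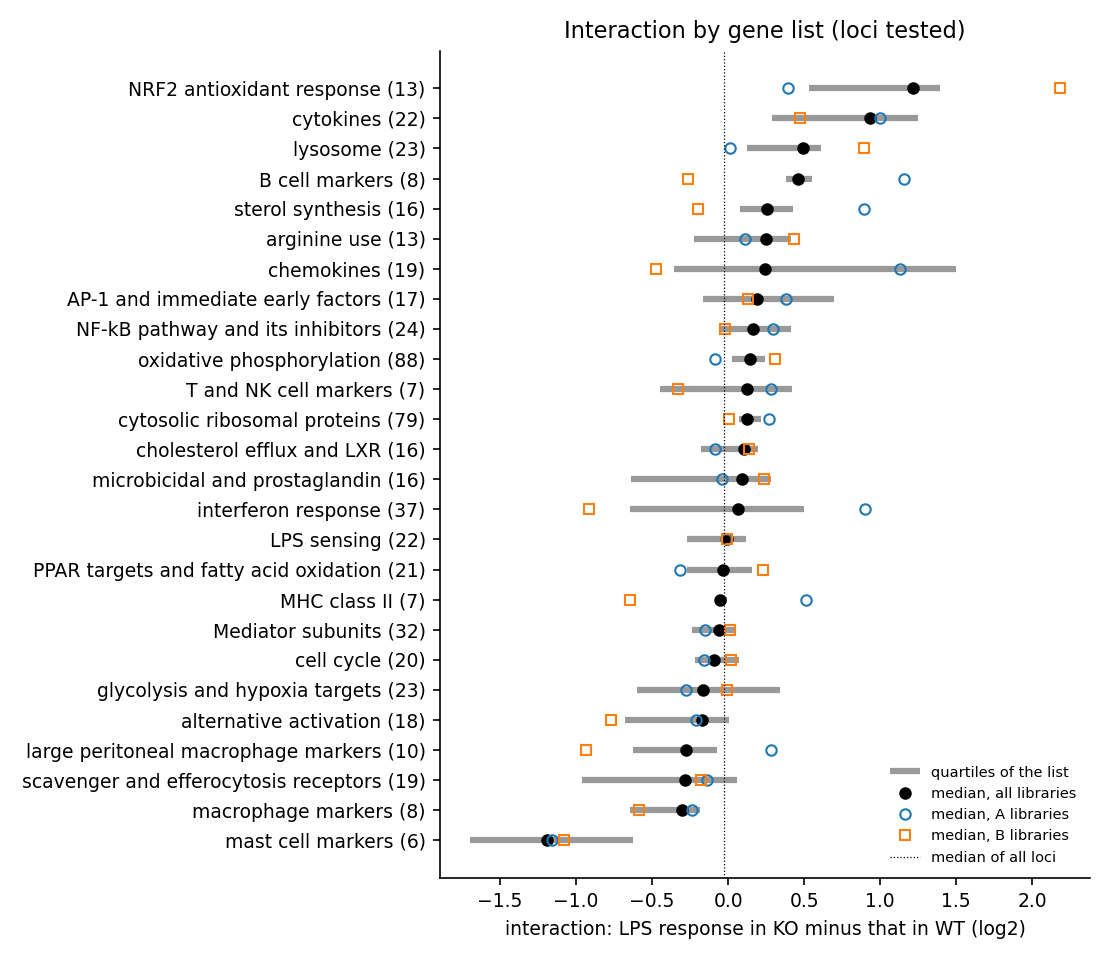
Median interaction (black), quartiles (grey bar) and the medians from the A (circles) and B libraries (squares) for the 26 gene lists with at least 6 loci tested, whose number is in brackets, on a log2 scale. The medians of the NRF2 response (1.22), cytokines (0.93) and lysosome (0.49) are the highest of the lists shown, the letters disagree in several lists, and the dotted line marks the median of all loci (-0.03).

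The remaining lists had medians between -0.16 and 0.19. LPS sensing genes had a median of -0.01 (11 of 22 higher), the NF-kB pathway and its inhibitors 0.16 (16 of 24), AP-1 and immediate early factors 0.19 (11 of 17), microbicidal and prostaglandin genes 0.09 (9 of 16), glycolysis and hypoxia targets -0.16 (11 of 23) and the cell cycle -0.09 (8 of 20). MHC class II genes had a median of -0.05 (1 of 7 higher), with 0.51 from the A libraries and -0.64 from the B libraries, 1 of 7 with the same sign in both, and 0.65 without KO untreated B and -0.74 without KO untreated A. Socs1, an inhibitor of cytokine signalling, had -1.46 (SE 0.99), and Nfkb2, an NF-kB subunit, 0.60 (SE 0.49). The prostaglandin synthase Ptgs2 had 386 and 1690 RPKM in LPS-treated WT and 1101 and 2951 in LPS-treated KO, an interaction of 1.92 (SE 1.05). The iron-binding Lcn2 had 126 and 271 RPKM in LPS-treated WT and 42.4 and 129 in LPS-treated KO, an interaction of -1.53 (SE 1.0). The treated ranges of both genes overlapped between genotypes. Irg1, which makes itaconate, had 0.77 (SE 1.0).

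For some LPS responses the 95% interval of the genotype difference stayed under 2-fold either way. Among called responders whose 95% interval of the interaction lay within -1 to 1, the largest rises included Nod2, a sensor of bacterial muramyl dipeptide. Nod2 had 2.02 and 3.03 RPKM in untreated WT, 16.0 and 20.3 in LPS-treated WT, 1.87 and 3.34 in untreated KO and 18.1 and 18.7 in LPS-treated KO. Its rise was 2.45 in WT and 2.46 in KO, and the interaction was 0.01 (95% interval -0.89 to 0.91). The amino acid transporter Slc7a5 rose by 2.53 in WT and 2.31 in KO, an interaction of -0.22 (95% interval -0.86 to 0.42). Abtb2 (-0.28, SE 0.29), the endocytic recycling factor Ehd1 (0.11, SE 0.36), the caspase-8 inhibitor Cflar (-0.01, SE 0.40) and the adaptor Lcp2 (-0.06, SE 0.33) were in the same class. Among genes that fell, the fatty acid transporter Slc27a6 (0.17, SE 0.32), the phosphatidate phosphatase Lpin1 (-0.05, SE 0.35), glycogenin Gyg (0.06, SE 0.35), the kinase Matk (0.19, SE 0.31) and the galactosylceramidase Galc (-0.06, SE 0.37) had such intervals.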

How the data were processed

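The authors deposited 1 table of RPKM values per gene in 8 libraries of total RNA. Per the submitters' processing notes, bcl2fastq, TopHat2 2.0.14 and Cufflinks 2.2.1 were used on mm9; the sources used here give neither the annotation nor the counting strand. The table's 24192 lines hold 23735 loci, since 457 lines are repeats that differ only in the symbol, and repeats were dropped. The 340 loci with several symbols keep all of them, and 26 loci with a calendar date as symbol were tested and not named.

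RPKM values as deposited were analysed as log2(RPKM + 1), so changes of low genes are understated. Group means were fitted in R 4.3.3 with limma 3.58.1 (moderated two-sided test, variance trend, residual degrees of freedom 4, prior 3.35), and p-values were adjusted by Benjamini-Hochberg over all 11272 loci, with calls under 0.05. The code was tested on simulated data. Alternatives were 2 other scalings, pseudocounts of 0.1 and 5 RPKM, no filter, a filter of 5 RPKM, no small RNA loci, other variance priors, the letter as a block, and leaving out each library. The list medians under these alternatives were added after seeing the data.

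The contrast, the 30 gene lists and the naming rule were chosen with earlier results of these data known, and lists are described by counts and medians without a test. Named were Med1, called loci, up to 10 genes per direction with the smallest p and a group mean of at least 5 RPKM, up to 4 members per list with the largest interaction, a fixed set of activation genes, and the largest LPS responses whose interval lay within -1 to 1; some are left out of the text.

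No read counts are given. Low values of 2729 loci were whole multiples of 1 step at 96.0% (tolerance 0.1 read plus 0.02 per read), which gave relative depths. The deepest library, KO untreated A, was set at 14.4 M reads (quartiles 13.6 and 14.8) from 727 genes with 1 transcript in GENCODE vM1. Hairpin lengths and sequences were matched by name to RefSeq tables on GRCm38.p6, and other positions are mm9 from GENCODE vM1. Python 3.11.15, numpy 2.4.6, pandas 2.3.3 and matplotlib 3.10.9 were used for depth and figures.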

Additional observations from a re-analysis of the deposited data

Results flagged for a closer look

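The difference between the LPS responses of the 2 genotypes passed its own test at 4 loci. Arg1 had an interaction of -4.03, with a response above 0 in both WT pairs and below 0 in both KO pairs. Mir5133 (6.48), Mir3473e (4.70) and Mir1894 (-6.10) each had the value taken as 1 read in 2 untreated libraries of 1 genotype and 0 in the other 6 libraries.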

How the results depend on the processing

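The letters A and B are not explained by the labels. The distances of same-letter libraries to their group means correlated at r from 0.20 to 0.41 in the 6 pairs of groups, over 11272 loci. With the letter as a replicate block the same 4 loci were called, Arg1 at an adjusted p of 0.0159, and 321 loci had an unadjusted p under 0.05.

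The 4 calls of the interaction, 2 upward and 2 downward, became 0 with a pseudocount of 0.1 RPKM (182 at an unadjusted p under 0.05, limma), 0 with a filter of 5 RPKM (139) and 0 without small RNA loci (179). Under median-ratio scaling, quantile normalization or no filter, 1 locus was called downward, since Arg1 was lost (adjusted p = 0.115, 0.0653 and 0.0999). Without 1 library, 1 to 7 loci were called, 1 to 6 upward and 0 to 3 downward, and the Arg1 interaction was -4.37 to -3.69, with an adjusted p of 0.0284 without KO A and of 0.0599 to 0.240 without each of the others. Over all 19 settings 15 loci were called at least once, and 14 of them carry a small RNA symbol. The average LPS response was called at 1551 loci upward and 1488 downward under median-ratio scaling, and at 488 to 971 upward and 633 to 3557 downward without 1 library.

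Under another scaling, pseudocount, filter or variance prior, the interaction changed sign at 2 of the named genes, both near 0: Cflar (up to 0.036) and Lpin1 (up to 0.045). Leaving out 1 library changed the sign at 22. Of these, Cflar, Ehd1, Galc, Gyg, Lcp2, Lpin1 and Nod2, named for an interval within -1 to 1, stayed between -0.41 and 0.43. The others ranged from -1.65 to 1.04 (Ccl5), -0.029 to 1.37 (Cd36), -1.74 to 0.36 (Chil3), -0.18 to 3.2 (Csf2), -3.70 to 1.27 (Cxcl10), -0.48 to 0.14 (Gata6), -0.99 to 1.91 (Il12b), -0.85 to 3.47 (Il6), -0.11 to 1.66 (Irg1), -0.22 to 3.52 (Lif), -0.63 to 0.19 (Lyz2), -0.066 to 0.32 (Med1), -2.03 to 0.78 (Nos2), -1.22 to 0.41 (Pparg) and -0.047 to 2.34 (Retnla). Of 26 list medians, 5 kept their sign without each library in turn (AP-1 factors, lysosome, macrophage markers, NRF2 and scavenger receptors), and 17 kept it without KO untreated B. Where 1 library of a group was left out, the lone library is assumed to vary like those of the other groups. Depth limits the low loci most, since the value taken as 1 read on a hairpin exceeds the filter.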
